A study of Mus musculus with 3 samples.

Results

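The 33 genes described here encode the glucose carriers, the glycolytic enzymes, the enzymes and carriers that handle pyruvate and lactate, and a small group of oxygen sensors and hypoxia-responsive genes. They were chosen by symbol from the 32285 features of the count tables, all 33 were found, and all 33 reached the minimum of 50 unique molecular identifiers (UMIs, 1 per captured transcript molecule) over the 3 libraries, as did 17363 symbols in all. The list was chosen with earlier results of these data known. Counts of called members set against all genes are therefore not independent of that choice. Single-cell suspensions of injured tibialis anterior muscle from C57/BL6J mice were profiled on the 10x Genomics platform 4 days after intramuscular barium chloride, a chemical that destroys fibres and starts regeneration. The young PBS library came from mice aged 3 to 4 months injected with buffer, the old PBS library from mice aged 24 to 26 months injected with buffer, and the old rMETRNL library from mice of the same old age injected into the muscle with recombinant meteorin-like protein (rMETRNL). Every group had been injured, and no uninjured group was compared here. Each group was 1 library made from muscles of 3 pooled mice, which leaves no replicates for a test. The intervals below cover counting error alone, and how far mice differ from one another is unknown. The questions put to the genes were how their levels differed with age (old PBS over young PBS) and with treatment (old rMETRNL over old PBS). Both comparisons use the same old PBS library, so a value that is low there by itself gives a low ratio in the first and a high ratio in the second.

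Glycolysis splits glucose into pyruvate in the cytosol, and lactate dehydrogenase turns pyruvate into lactate when flux is high or oxygen is short, after which monocarboxylate carriers export it with a proton. When oxygen falls, prolyl hydroxylases of the Egln family stop marking the factor Hif1a for destruction, and stabilised Hif1a binds promoters of glucose carrier, glycolytic, lactate carrier and mitophagy genes. Injured muscle loses its capillary supply for some days, and its macrophages, fibro/adipogenic progenitors (FAPs, the mesenchymal cells of muscle) and dividing muscle stem cells (MuSCs) all use glycolysis while they are active.

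The libraries held 12168, 12568 and 14012 barcodes with 218059089, 179295668 and 228966697 UMIs (young PBS, old PBS, old rMETRNL, the order used throughout), of which 10318, 10019 and 11468 cells were kept. From 24 to 36 kept barcodes were shared by each pair of libraries. Cells were grouped by clusters made without the 33 genes and named from marker genes with the ending -like. The 8 classes with at least 50 cells in every library are reported, led by macrophage/monocyte-like cells (6159, 6066 and 6725) and FAP-like cells (1626, 1340 and 1695). Mature fibre-like cells numbered 34, 443 and 132, and transcripts of fibres were found in all other classes. Levels are counts per 1000000 UMIs of the class (CPM). A gene was called higher when its CPM ratio was at least 25% above 1, or lower when it was at least 20% below 1, and its 95% counting interval left out 1 (the fold, below). In whole tissue suspensions, fewer transcripts per cell of a class and a different mix of cells within the class cannot be told apart from class sums alone. Gapdh, Eno1, Pgam1, Ldha and Tpi1 have near-identical copies elsewhere in the mouse genome (Eno1b is a separate feature of the files), so their levels are uncertain to the degree that counting split reads between copies.

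In FAP-like cells, most of the glycolytic and lactate-handling genes and the hypoxia genes Bnip3, Ankrd37 and Egln3 were lowest in old PBS. In old rMETRNL most members were near young PBS, while Ankrd37 and Egln3 were below it and the oxygen sensor Egln1 above it, and Hif1a itself was highest in old PBS by a small margin. Of 31 members with enough UMIs in this class (Slc2a4 and Aldoc fell under the minimum), 18 were lower and 3 higher in old PBS than in young PBS, where 15.6% of 14221 genes were called lower and 13.3% higher. With treatment, 17 of 31 members were higher and 3 lower, where 10.4% of all genes were called higher and 9.43% lower. The median log2 ratio of the members was -0.36 with age, against -0.04 over all genes tested, and 0.43 with treatment, against 0.02. Old PBS was the lowest of the 3 libraries for 21 of the 31 members, and old rMETRNL was the highest for 16. At a fold of 1.5, 10 members were lower and 2 higher with age, against 5.96% and 6.62% of genes, and 9 were higher and 1 lower with treatment, against 4.21% and 4.09%. Among the large departures in both comparisons were those of the lactate exporter Slc16a3, the phosphofructokinase Pfkl, the glycolytic enzyme Pgk1 and the mitophagy receptor Bnip3.

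**Figure D1:**
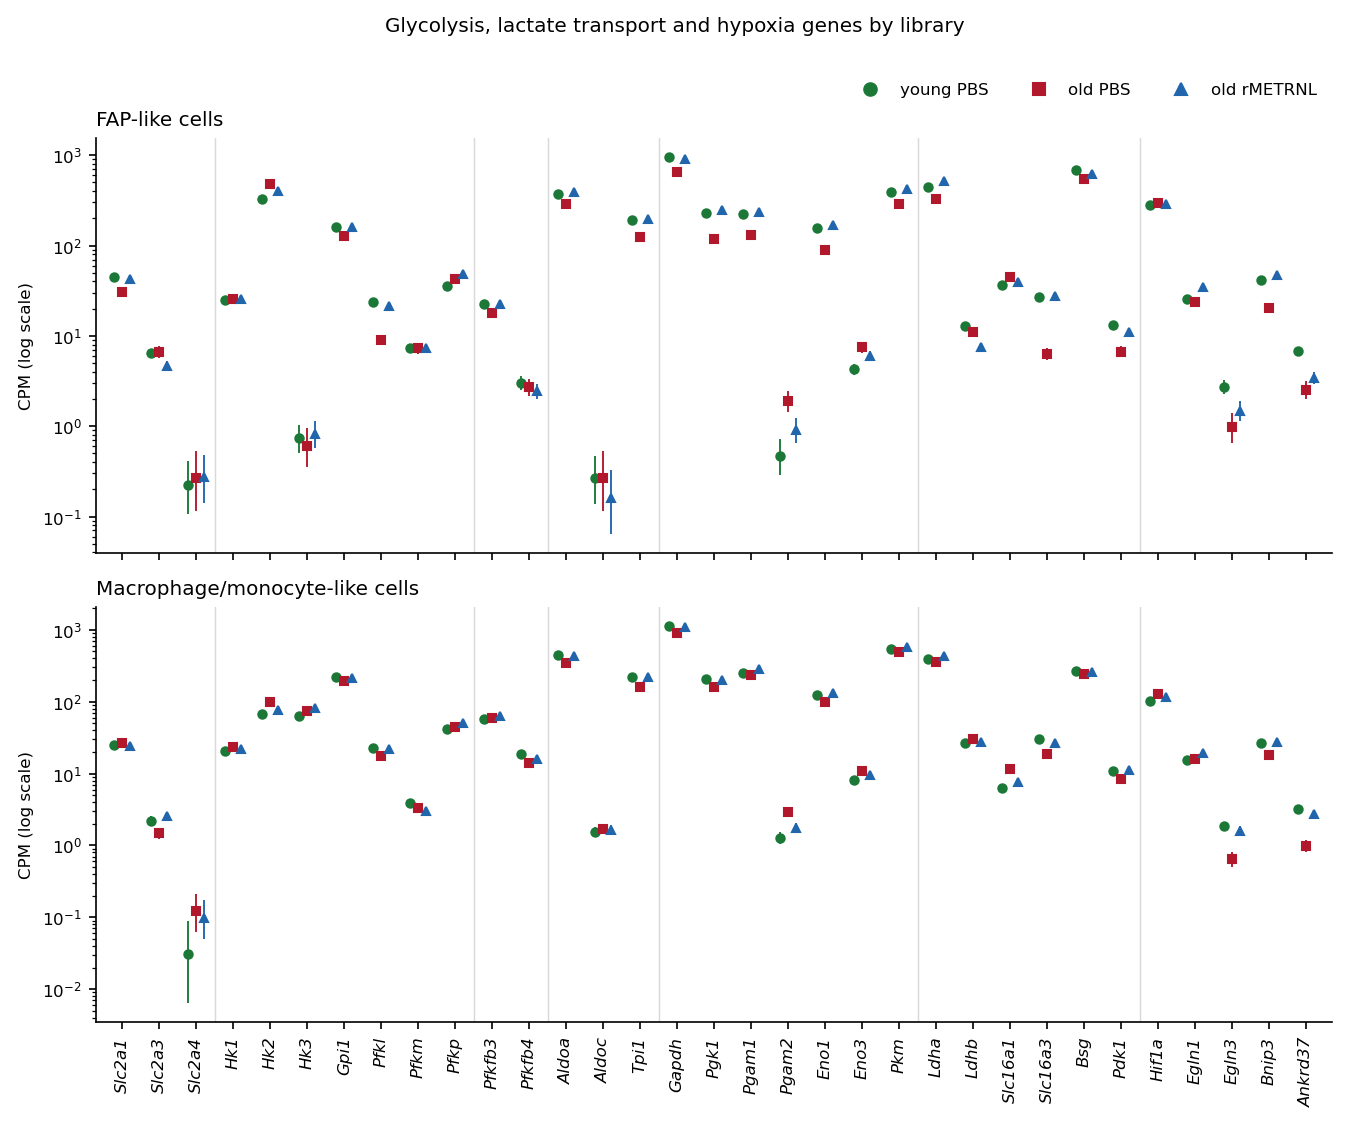
Levels of the members in FAP-like and macrophage/monocyte-like cells (CPM, log scale) for the 3 libraries, with 95% Poisson intervals as bars. In FAP-like cells the old PBS points of Slc16a3 (6.31), Pfkl (8.95), Pgk1 (118) and Bnip3 (20.5) lie below those of both other libraries, while Hk2 in old PBS (482) stands above them.

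The promoters of these genes are shown because hypoxia-responsive genes often carry a short core that Hif factors can bind, written here as ACGTG or GCGTG on either strand (CACGT or CACGC when read on the printed strand). Windows of 300 bases, from 250 bases before to 50 after a RefSeq gene start (GRCm38.p6), were at hand for 30 of the 33 members, not for Slc2a3, Slc2a4 and Bsg. At least 1 core was found in a window of 27 of the 30, against 46.7% of 27025 genes, and at least 2 in a window of 20 (66.7%), against 22.9%. Some genes have several windows, and by window a core was found in 81.4% of 43 member windows, against 43.8% of 32851 windows. The letters hold a CG pair, and the median number of CG pairs per window was 20 for the members and 7 for all windows, and the part of base composition in the excess was not tested. The windows of Slc16a3, Pfkl, Pgk1 and Bnip3, called in both comparisons in FAP-like cells, follow, with Hk2, which was higher in old PBS, and Tpi1, which was lower in most classes and has no core in its window. Capitals mark the cores, and in CACGTG the cores of both strands overlap.
Slc16a3, chr11:120948817-120949116, plus strand: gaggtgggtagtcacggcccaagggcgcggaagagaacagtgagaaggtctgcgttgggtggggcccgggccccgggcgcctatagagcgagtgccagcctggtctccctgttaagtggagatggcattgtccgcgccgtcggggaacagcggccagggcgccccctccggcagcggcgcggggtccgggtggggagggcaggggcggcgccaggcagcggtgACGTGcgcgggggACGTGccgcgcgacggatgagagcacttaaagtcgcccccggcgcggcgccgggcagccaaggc
Pfkl, chr10:78009758-78010057, minus strand: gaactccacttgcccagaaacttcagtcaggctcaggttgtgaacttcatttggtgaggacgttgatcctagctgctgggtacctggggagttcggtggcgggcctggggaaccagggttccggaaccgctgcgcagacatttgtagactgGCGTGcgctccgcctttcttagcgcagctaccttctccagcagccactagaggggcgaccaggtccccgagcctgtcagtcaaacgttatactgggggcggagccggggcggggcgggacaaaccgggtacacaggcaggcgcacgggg
Pgk1, chrX:106186850-106187149, plus strand: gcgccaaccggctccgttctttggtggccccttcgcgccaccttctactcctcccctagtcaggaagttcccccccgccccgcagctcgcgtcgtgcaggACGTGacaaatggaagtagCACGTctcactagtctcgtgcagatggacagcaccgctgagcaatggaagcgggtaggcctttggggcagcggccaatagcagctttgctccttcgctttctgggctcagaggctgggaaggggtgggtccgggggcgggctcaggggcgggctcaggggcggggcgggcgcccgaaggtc
Bnip3, chr7:138909457-138909756, minus strand: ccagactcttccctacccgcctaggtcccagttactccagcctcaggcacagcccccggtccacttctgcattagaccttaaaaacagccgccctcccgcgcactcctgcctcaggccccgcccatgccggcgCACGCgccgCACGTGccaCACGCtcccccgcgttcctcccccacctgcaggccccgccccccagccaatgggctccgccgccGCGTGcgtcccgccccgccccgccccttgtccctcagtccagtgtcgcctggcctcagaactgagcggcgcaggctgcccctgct
Hk2, chr6:82774405-82774704, minus strand: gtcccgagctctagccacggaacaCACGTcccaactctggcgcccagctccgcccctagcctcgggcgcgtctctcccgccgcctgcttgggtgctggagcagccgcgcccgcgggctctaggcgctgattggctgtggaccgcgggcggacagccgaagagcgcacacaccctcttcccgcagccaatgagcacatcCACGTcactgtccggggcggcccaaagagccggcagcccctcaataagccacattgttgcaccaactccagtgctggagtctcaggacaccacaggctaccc
Tpi1, chr6:124814109-124814408, minus strand: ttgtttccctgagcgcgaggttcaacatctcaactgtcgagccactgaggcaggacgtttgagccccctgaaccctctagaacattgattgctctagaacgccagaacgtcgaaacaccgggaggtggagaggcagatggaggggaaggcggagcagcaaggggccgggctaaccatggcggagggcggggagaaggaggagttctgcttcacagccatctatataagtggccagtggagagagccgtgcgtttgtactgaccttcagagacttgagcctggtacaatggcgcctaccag
The Slc16a3 and Hk2 windows each hold 2 cores, as does that of Pgk1, the Pfkl window holds 1, and that of Bnip3 holds 5 with the overlapping pair counted as 2. Cores therefore stand in windows of genes that were lower and of a gene that was higher in old PBS, and a match is a description of letters, not a bound site.

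Among the genes for pyruvate and lactate, Slc16a3 had the largest departure of all members in FAP-like cells. This carrier, also called MCT4, exports lactate from highly glycolytic cells, and it had 1219, 189 and 1219 UMIs, or 27.2, 6.31 and 27.7 CPM. Old PBS was thus at 0.232 times young PBS (95% counting interval 0.198 to 0.271), and old rMETRNL at 4.38 times old PBS (3.76 to 5.14). Young PBS and old rMETRNL did not differ beyond counting error, with a ratio of 1.02 (0.939 to 1.10). Slc16a1, the related carrier MCT1 that moves lactate in either direction, did not share this pattern. Its levels of 36.2, 45.2 and 39.2 CPM gave ratios of 1.246 with age (1.16 to 1.34, just under the fold) and 0.869 with treatment.

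Ldha, the lactate dehydrogenase subunit that favours lactate formation, was measured at 443, 330.2 and 519 CPM in FAP-like cells, 0.746 times with age (0.728 to 0.764) and 1.57 times with treatment (1.53 to 1.61). Ldhb, the subunit that favours pyruvate, had levels of 12.7, 11.1 and 7.44 CPM and was called only with treatment, where it was lower at 0.669 times (0.573 to 0.782). The 2 subunits thus went opposite ways with treatment. Pdk1, which keeps pyruvate out of the mitochondria by inhibiting pyruvate dehydrogenase, was at 13.2, 6.71 and 11.1 CPM, 0.510 times with age (0.432 to 0.600) and 1.65 times with treatment (1.39 to 1.95). Bsg, the chaperone that carries monocarboxylate carriers to the cell surface, was at 694, 540 and 614 CPM, lower with age at 0.778 times and not called with treatment at 1.14 times. In this group, 4 of 6 genes were lower with age (15.6% of all genes), and 3 were higher and 1 lower with treatment (10.4% and 9.43%).

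In the lower part of glycolysis, where triose phosphates are turned into pyruvate with a gain of ATP, the 5 genes expressed across tissues were lower with age and higher with treatment. Over all 7 genes of this part, 5 were lower and 2 higher with age, and 5 were higher and 1 lower with treatment. The shares of all genes called are those given above for FAP-like cells. Pgk1, the first ATP-forming step, showed the widest swing, at 229.5, 118 and 247 CPM, 0.514 times with age (0.495 to 0.535) and 2.09 times with treatment (2.01 to 2.17). Eno1, an enolase, stood at 156, 90.3 and 171 CPM, which gave 0.580 times (0.555 to 0.607) and 1.89 times (1.81 to 1.97). Pgam1, the phosphoglycerate mutase of most tissues, stood at 222, 131 and 233 CPM, which gave 0.587 times (0.566 to 0.609) and 1.78 times (1.72 to 1.85). For all 3 genes, old rMETRNL was slightly above young PBS and old PBS well below both. Gapdh, which oxidises glyceraldehyde phosphate and often serves as a reference gene, had 948, 647 and 914 CPM and ratios of 0.683 (0.671 to 0.695) and 1.41 (1.39 to 1.44). Pkm, the pyruvate kinase, had 396, 286 and 425 CPM and ratios of 0.723 (0.704 to 0.742) and 1.48 (1.45 to 1.52). The muscle-type members went the other way. Pgam2 had 21, 57 and 40 UMIs, or 0.468, 1.90 and 0.907 CPM, which came to 4.06 times with age (2.43 to 7.06) and 0.477 times with treatment (0.310 to 0.727). Eno3 had 4.28, 7.48 and 6.04 CPM, 1.75 times with age (1.43 to 2.13) and 0.807 times with treatment (0.673 to 0.969, just short of the fold and not called). The higher Eno3 with age is no firm call, since its log2 ratio of 0.80 turned to -0.32 in cells gated by marker UMIs, to -0.21 with doublet calls kept and to -0.16 with the fibre ratio subtracted, as described below. Both are fibre genes, and the fibre markers in FAP-like cells, given below, were ordered the same way across the libraries. The Pgam2 calls are not firm either. Its age ratio fell with the fibre ratio subtracted and its treatment call was lost in some alternatives, as given below.

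In the upper part, which primes and splits the sugar, 4 of 9 tested genes were lower and 1 higher with age (15.6% and 13.3% of all genes), and 4 were higher and none lower with treatment (10.4% and 9.43%). Pfkl, the liver-type subunit of phosphofructokinase, the committed and regulated step, was the subunit with the low value in old PBS, at 23.6, 8.95 and 21.5 CPM (1061, 268 and 946 UMIs). Its ratio was 0.378 with age (0.330 to 0.433) and 2.40 with treatment (2.09 to 2.76). Pfkp, the platelet-type subunit, was at 35.9, 43.1 and 48.8 CPM and was called in neither comparison, and Pfkm, the muscle-type subunit, was at 7.31, 7.31 and 7.33 CPM with no call either. A call in either comparison was thus seen for 1 of the 3 subunits. Tpi1, which interconverts the triose phosphates, was at 192, 123 and 198 CPM, 0.640 times with age (0.616 to 0.666) and 1.61 times with treatment (1.54 to 1.67). Aldoa, the aldolase that splits the sugar, was at 371, 288 and 395 CPM (0.778 and 1.37 times), and Gpi1, which isomerises glucose phosphate, at 161.8, 127 and 162.2 CPM (0.786 and 1.28 times). The age calls of Aldoa and Gpi1 each held in 12 of 15 alternatives at the same fold.

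Hk2 was the clearest exception among FAP-like cells. This inducible, mitochondria-bound hexokinase, which traps glucose in the cell, was at 328, 482 and 402 CPM, 1.47 times with age (1.44 to 1.505) and 0.834 times with treatment (0.816 to 0.853, not called). The age call was lost when the sub-cluster mix of young PBS was held, as given below. Hk1, the constitutive form, did not differ beyond counting error in either comparison, at 24.7, 25.4 and 25.8 CPM, and Hk3, a form of leukocytes, was under 1 CPM in all 3 libraries. Glucose carriers split as well. Slc2a1 (GLUT1), the main basal carrier, was at 44.9, 30.4 and 42.8 CPM, 0.678 times with age (0.626 to 0.733) and 1.41 times with treatment (1.299 to 1.52). Slc2a3 (GLUT3), a high-affinity carrier, was at 6.42, 6.64 and 4.65 CPM, not called with age and lower with treatment at 0.7002 times (0.573 to 0.855). That treatment call was lost with the sub-cluster mix of young PBS held, and within the 5 sub-clusters with enough UMIs the ratio was above 1 in 2 and below 1 in 3, called in none. Pfkfb3, whose product makes the activator of phosphofructokinase, was at 22.5, 17.96 and 22.6 CPM, 0.799 times with age (0.718 to 0.888, just past the fold) and 1.26 times with treatment (1.13 to 1.40), calls that held in 9 and 10 of 15 alternatives at the same fold. Its relative Pfkfb4 was near 3 CPM and was called in neither.

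Of the oxygen sensing and hypoxia genes, Hif1a itself did not follow the others. Its level in FAP-like cells was 278, 295 and 287 CPM, 1.06 times with age (1.03 to 1.09) and 0.972 times with treatment (0.946 to 0.999), while transcript level says nothing of Hif1a protein, which is controlled by its breakdown. Bnip3, a mitophagy receptor and a known Hif target, was at 41.8, 20.5 and 47.8 CPM, 0.492 times with age (0.448 to 0.539) and 2.33 times with treatment (2.13 to 2.55). Ankrd37, another known Hif target, was at 6.78, 2.54 and 3.43 CPM, 0.374 times with age (0.287 to 0.483) and 1.35 times with treatment (1.02 to 1.80). The treatment call held in 7 of 15 alternatives at the same fold, and old rMETRNL stayed at 0.505 times young PBS (0.413 to 0.617). Egln3, an inducible oxygen sensor, was at 2.74, 0.968 and 1.48 CPM, 0.353 times with age (0.227 to 0.533) and not called with treatment at 1.52 times (0.969 to 2.45). Egln1, the main sensor, was at 25.3, 23.6 and 34.9 CPM and was called only with treatment, higher at 1.48 times (1.35 to 1.62). Bnip3 thus stood in old rMETRNL at or above its young PBS level, and Ankrd37 and Egln3 below it.

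Set directly against young PBS, old rMETRNL FAP-like cells had 4 members higher and 4 lower of 31, where 6.96% of all genes were called higher and 7.76% lower. The higher ones were Pfkp (1.36 times), Egln1 (1.38), Eno3 (1.41) and Pgam2 (1.94), and the lower ones Egln3 (0.538), Ankrd37 (0.505), Ldhb (0.586) and Slc2a3 (0.724). None of the ubiquitous glycolytic enzymes that were lower in old PBS was among them.

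**Figure D2:**
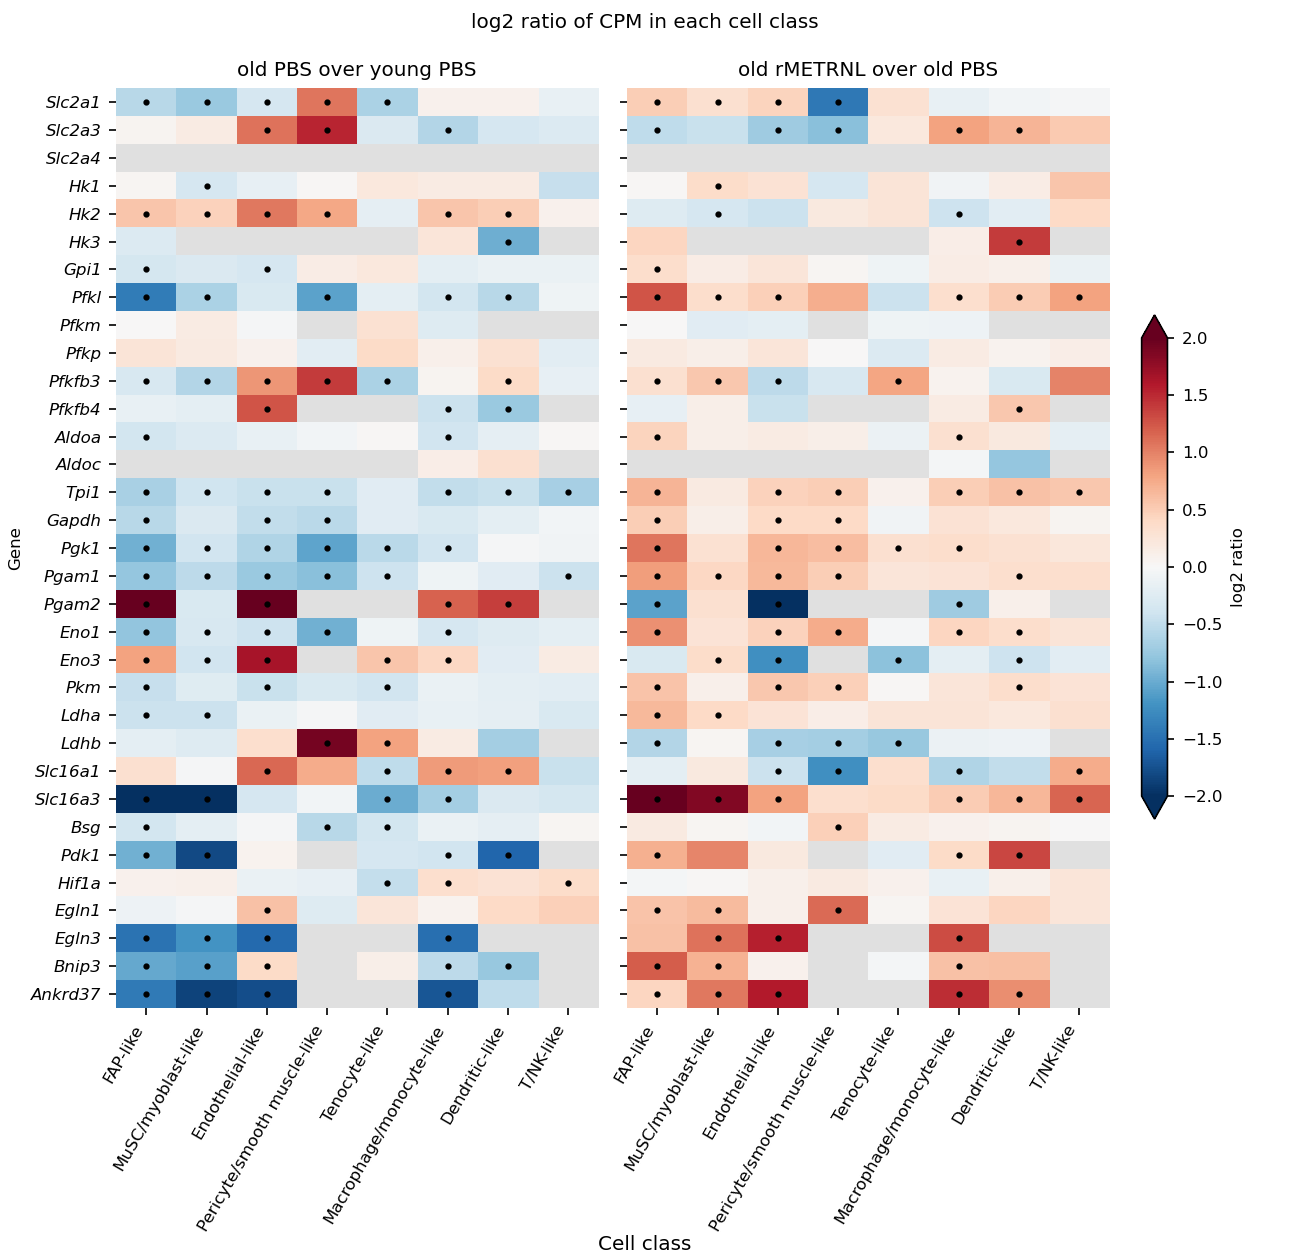
Log2 ratio of CPM of each member in the 8 reported classes, with age (old PBS over young PBS) and with treatment (old rMETRNL over old PBS), with dots for calls and grey for genes under the minimum. Slc16a3, Tpi1, Pgk1 and Pgam1 are below 0 with age in most classes and above 0 with treatment, whereas Hk2 is above 0 with age in 7 of 8 classes.

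Markers of other states moved across the same libraries. The 16 mature fibre genes summed to 29, 192 and 62.1 CPM in FAP-like cells, with 15 of 15 tested genes higher with age and 15 lower with treatment, and Myh2 at 0 in both old libraries. Each member was then reduced by the UMIs that fibre transcripts would bring, from its ratio to the fibre list in mature fibre-like cells. The log2 age ratio became -2.11 (from -2.10) for Slc16a3, -0.96 (from -0.96) for Pgk1 and -1.03 (from -1.02) for Bnip3, whereas that of Eno3 went from 0.80 to -0.16 and that of Pgam2 from 2.002 to 0.58. After this subtraction 1 member was higher with age in place of 3. The 10 cell cycle genes summed to 425, 294 and 529 CPM, with 8 of 10 lower with age and 10 of 10 higher with treatment. Cells with 2 or more UMIs of these 10 genes were then left out, by counts and not by the cycling sub-cluster named below. Without them, 12 members were lower and 4 higher with age (14.4% and 12.3% of genes), and 14 were higher and 4 lower with treatment (5.98% and 7.44%). Slc16a3 was then at a log2 age ratio of -1.96 and Pgk1 at -0.81. The age calls of Gpi1, Aldoa, Pkm, Ldha, Pfkfb3 and Egln3 were lost there. Haemoglobin genes summed to 12.4, 19.5 and 14.9 CPM and dissociation stress genes to 9685, 9438 and 9711 CPM, and the part of these 2 lists was not tested.

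Within FAP-like cells the members were not evenly spread. Of the 8 sub-clusters, one led by Inhba, Il11 and Il1rl1 and named by its markers Crabp1/Il11/Inhba (395, 243 and 392 cells) held some of the highest levels of Slc16a3, which stood among its 10 leading genes although it was hidden from the clustering. Slc16a3 was at 52.8, 8.34 and 45.0 CPM in that sub-cluster (663, 59 and 504 UMIs), and at 50.4, 14.8 and 64.4 CPM in the cycling sub-cluster (127, 61 and 168 cells). In Cxcl10 inflammatory FAP-like cells (250, 419 and 286 cells) it was at 5.91, 3.87 and 4.94 CPM (36, 39 and 34 UMIs). The old PBS value was thus far below the others in the first pair and less far in the last. In the sub-cluster led by the heat shock genes Dnaja4, Hspb1 and Hspa1a (270, 143 and 278 cells) both old libraries were low, with 115, 14 and 42 UMIs. Over the 6 sub-clusters with enough UMIs, the Slc16a3 ratio with age was below 1 in 6 and called lower in 4, and with treatment it was above 1 in 6 and called higher in 3.

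Other members repeated this arrangement. Pgk1 was at 383, 172 and 384 CPM in the Crabp1/Il11/Inhba sub-cluster and at 107, 88.1 and 98.1 CPM in the Cxcl10 one, and its age ratio was below 1 in 8 of 8 sub-clusters and called lower in 4. Bnip3 was at 68.7, 22.04 and 74.2 CPM against 21.01, 17.7 and 21.4 CPM in the same pair, and Pfkl at 35.2, 12.3 and 33.1 CPM against 12.8, 6.85 and 10.03. In the Pi16/Dpp4 sub-cluster (125, 151 and 234 cells) Pgk1 was at 146, 95.7 and 211 CPM, above young PBS in old rMETRNL. Slc2a1 was below 1 with age in 7 of 7 tested sub-clusters and called lower in 4, Pgam1 in 8 of 8 and called in 6, and Pfkl in 6 of 6 and called in 5, while Eno1 was below 1 in 6 of 7. With treatment, Ldha was above 1 in 8 of 8 sub-clusters and called higher in 4, and Bnip3 was above 1 in 7 of 7 and called higher in 5. Egln3 had 70, 5 and 22 UMIs in the Crabp1/Il11/Inhba sub-cluster and 26, 0 and 12 in the cycling one, where the exact Poisson interval of the 0 reached 1.65 CPM.

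**Figure D3:**
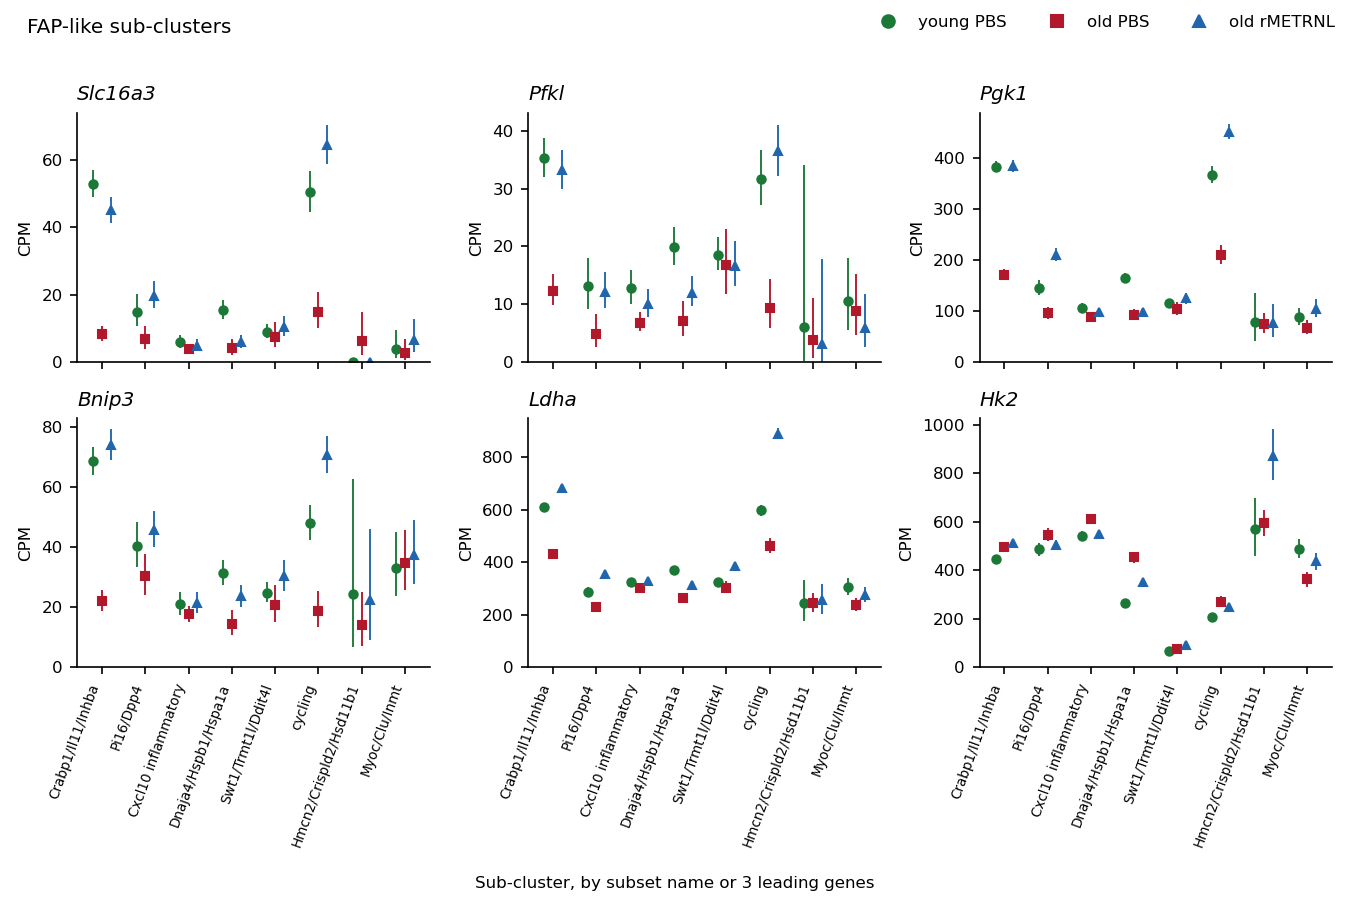
Levels (CPM) of selected members in the FAP-like sub-clusters for the 3 libraries, with 95% Poisson intervals as bars. Slc16a3 in the Crabp1/Il11/Inhba sub-cluster stands at 52.8, 8.34 and 45.0 CPM (young PBS, old PBS, old rMETRNL), while the values of the Cxcl10 inflammatory sub-cluster lie between 3.87 and 5.91.

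The sub-clusters differed in size between libraries, and Hk2 was at unlike levels in some of them. The Cxcl10 inflammatory sub-cluster was largest in old PBS and had Hk2 at 542, 611 and 550 CPM, whereas the one led by Swt1, Trmt1l and Ddit4l was largest in young PBS (366, 125 and 189 cells) and had Hk2 at 66.1, 76.3 and 90.9 CPM. Within sub-clusters, the Hk2 ratio with age was above 1 in 7 of 8, called higher in 2 and lower in 1. With the sub-cluster mix of young PBS held, a setting added after the data were seen, the log2 age ratio of Hk2 went from 0.56 to 0.26, under the fold, that of Slc16a3 from -2.10 to -1.88, that of Pgk1 from -0.96 to -0.82 and that of Pfkl from -1.40 to -1.15. With that mix held, 16 members were lower and 2 higher with age (8.62% and 11.3% of genes), and 16 higher and 2 lower with treatment (5.66% and 8.31%). Hif1a was at 308, 331 and 301 CPM in the Crabp1/Il11/Inhba sub-cluster and at 322, 318 and 313 CPM in the Cxcl10 one, close together where Slc16a3 stood far apart.

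In macrophage/monocyte-like cells the median departure was smaller than in FAP-like cells and some members went other ways. Several, among them Ankrd37 and Slc16a1, departed further than in FAP-like cells. Of 32 members tested (Slc2a4 fell under the minimum), 12 were lower and 5 higher with age, where 12.5% of 14366 genes were called lower and 12.5% higher, and 11 were higher and 3 lower with treatment, where 12.5% were called higher and 7.78% lower. At a fold of 1.5 the counts were 4 lower and 2 higher with age (5.80% and 5.62% of genes), and 4 higher and 2 lower with treatment (4.87% and 3.08%). The medians were -0.14 and 0.20 on the log2 scale, against 0.00 and 0.05 over all genes. Against young PBS, old rMETRNL had 3 members higher and 1 lower, where 7.52% and 4.32% of genes were called. Old PBS was the lowest library for 18 of the 32 members. With cells left out by the same cell cycle counts, 7 members were lower with age and 7 higher with treatment (12% and 9.91% of genes). The age calls lost were those of Pfkl, Aldoa, Pgk1, Eno1 and Pdk1.

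The hypoxia genes Ankrd37 and Egln3 led in this class. Ankrd37 was at 3.23, 0.986 and 2.75 CPM, 0.305 times with age (0.241 to 0.384) and 2.79 times with treatment (2.22 to 3.54). Egln3 was at 1.84, 0.644 and 1.601 CPM, 0.3497 times (0.259 to 0.468) and 2.49 times (1.86 to 3.36). Bnip3 was at 26.4, 18.3 and 27.5 CPM, 0.693 times (0.652 to 0.737) and 1.503 times (1.42 to 1.59). For all 3, the young PBS and old rMETRNL values lay close together with old PBS below. Slc16a3 was at 30.4, 19 and 27.0 CPM, 0.626 times (0.590 to 0.663) and 1.42 times (1.34 to 1.504), a smaller departure than in FAP-like cells. Tpi1, at 223, 158 and 223 CPM (0.710 and 1.41 times), and Eno1, at 124, 97.8 and 132 CPM (0.790 and 1.35 times), were among the glycolytic enzymes called in both comparisons. Aldoa, Pgk1, Pfkl and Pdk1 were also called lower with age and higher with treatment.

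Slc16a1 and Hk2 ran the opposite way in macrophage/monocyte-like cells. Slc16a1 was at 6.38, 11.5 and 7.63 CPM, 1.81 times with age (1.64 to 1.996) and 0.662 times with treatment (0.605 to 0.724), and Hk2 at 68.2, 100.5 and 75.6 CPM, 1.47 times (1.43 to 1.52) and 0.752 times (0.731 to 0.774). Hif1a was at 101, 128 and 116 CPM, higher with age at 1.27 times and not called with treatment. Slc2a3, at 2.21, 1.47 and 2.57 CPM, was lower with age (0.664 times, 0.534 to 0.823) and higher with treatment (1.75 times, 1.43 to 2.15), whereas in FAP-like cells it was lower with treatment. Pfkfb4 was at 18.9, 14.02 and 15.8 CPM (0.741 times with age), and Hk3 at 62.8, 74.6 and 82.0 CPM, not called in either comparison and higher in old rMETRNL than in young PBS (1.31 times, 1.26 to 1.35). Pgam2 and Eno3 were higher with age, as were the 16 fibre genes (96.0, 208 and 127 CPM in sum, 14 of 15 tested higher, none at 0). With the fibre ratio subtracted, as was done for FAP-like cells, the log2 age ratio of Pgam2 went from 1.18 to -0.032 and that of Eno3 from 0.41 to 0.28, under the fold. In cells gated by marker UMIs the Eno3 ratio turned to -0.14. Cell cycle genes summed to 437, 387 and 508 CPM, with 4 of 10 lower with age and 9 of 10 higher with treatment. Dissociation stress genes summed to 6382, 4988 and 6120 CPM, with 4 of 11 lower and 1 higher with age and 4 higher and 1 lower with treatment, and haemoglobin genes to 199, 51.5 and 115 CPM. The part of the stress and haemoglobin lists in the members' values was not tested.

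By sub-cluster, Slc16a3 was highest in macrophage/monocyte-like cells led by Ly6c2, a marker of recruited monocytes, at 115, 88.8 and 102 CPM. There the libraries lay closer together than in cells led by Ctsl, Rnf128 and Cd36 (425, 521 and 714 cells), with 50.7, 15.9 and 36.0 CPM, and in those led by Ednrb, Lyve1 and Cd163 (607, 505 and 1090 cells), with 26.4, 8.69 and 18.4 CPM. Over 11 sub-clusters, the Slc16a3 age ratio was below 1 in 10, called lower in 8 and higher in 1, and its treatment ratio was above 1 in 7 and called higher in 5. In the Ctsl/Rnf128/Cd36 sub-cluster Ankrd37 was at 8.05, 1.02 and 5.45 CPM (86, 15 and 104 UMIs), Egln3 at 6.74, 0.476 and 3.72 CPM (72, 7 and 71 UMIs) and Pgk1 at 452, 278 and 343 CPM. All 3 had their lowest value in old PBS there. Hk2 was above 1 with age in 10 of 11 sub-clusters, called higher in 6 and lower in none, and Slc16a1 was above 1 in 10 of 10 and called higher in 7. Sizes differed here too, and the sub-cluster led by Dnase1l3, Vcam1 and Itgal held 802, 1315 and 618 cells. With the mix of young PBS held, the number of members higher with treatment went from 11 to 6 and that lower from 3 to 2, where 6.29% of genes were called higher and 9.25% lower. With age, 10 were then lower and 4 higher (7.04% and 12.4% of genes).

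In MuSC/myoblast-like cells (323, 166 and 349), the lactate exporter Slc16a3 and the hypoxia genes Egln3, Bnip3 and Ankrd37 again had the lowest values in old PBS. Of 30 members tested, 15 were lower and 1 higher with age, where 5.85% of genes were called lower and 9.02% higher, and 12 were higher and 1 lower with treatment, where 5.13% were called higher and 7.40% lower. Against young PBS, old rMETRNL had 5 lower and 1 higher (4.73% and 4.67% of genes). Slc16a3 was at 24.6, 3.93 and 14.5 CPM (291, 21 and 179 UMIs), 0.160 times with age (0.0973 to 0.249) and 3.69 times with treatment (2.34 to 6.11), and old rMETRNL remained at 0.590 times young PBS (0.487 to 0.713). Egln3, at 39.1, 17.1 and 36.2 CPM, and Ankrd37, at 17.1, 4.68 and 9.90 CPM, were lower with age (0.436 and 0.274 times) and higher with treatment (2.12 and 2.12 times). Pdk1 had 65, 8 and 38 UMIs. It reached the minimum only through young PBS, where it was high, so its call among the 15 lower with age rests on that selection. The enzymes moved less, with Ldha at 812, 605 and 800.5 CPM (0.744 and 1.32 times) and Pgam1 at 415, 288 and 382 CPM (0.694 and 1.33 times). Hk2, at 61.9, 85.2 and 67.3 CPM, was again the exception (1.38 and 0.789 times). The fibre genes summed to 1526, 1473 and 1639 CPM in this class and so did not differ by the fold between libraries, with Myh2 at 0 in all 3. The part of cycling cells, of the cell mix and of the border with myocyte-like cells (146, 46 and 89) in these calls was not tested.

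Endothelial-like cells (653, 929 and 968, with median UMI counts of 11389, 3938 and 7052) had 10 of 30 members lower and 9 higher with age, where 17.2% and 14.5% of genes were called, and 11 higher and 6 lower with treatment, where 11.5% and 10.7% were called. Against young PBS, old rMETRNL had 7 higher and 0 lower (6.56% and 6.60% of genes). Ankrd37 was higher here than in the 7 other reported classes in young PBS and in old rMETRNL, at 36.1, 10.5 and 31.6 CPM, 0.290 times with age (0.221 to 0.375) and 3.02 times with treatment (2.33 to 3.96). Egln3 was at 12.9, 4.34 and 13.0 CPM (0.337 and 2.99 times). The other hypoxia genes did not share this pattern. Bnip3 and Egln1 were called higher with age and were not called with treatment, whereas Bnip3 was lower with age in FAP-like and macrophage/monocyte-like cells. Of the 5 oxygen sensing and hypoxia genes, 2 were thus lower and 2 higher with age in endothelial-like cells. Pfkfb3, which endothelial cells use to drive glycolysis during sprouting, was at 139, 257 and 178 CPM, 1.84 times with age (1.72 to 1.98) and 0.692 times with treatment (0.648 to 0.739), the reverse of Ankrd37 and Egln3. Pgk1, at 204, 135 and 215 CPM, and Pgam1, at 158, 94.2 and 148 CPM, were lower with age (0.662 and 0.595 times) and higher with treatment (1.59 and 1.57 times). Slc16a1 was at 11.1, 24.7 and 18.4 CPM, 2.23 times with age (1.74 to 2.85). Fibre genes summed to 32.99, 421 and 88.6 CPM in these cells, and Pgam2 had 4, 43 and 5 UMIs. It reached the minimum only through old PBS, the library where it was high, so its calls, counted among the 9 higher with age and the 6 lower with treatment, rest on that selection. Pfkfb4, also among the 9, passed the minimum only with its highest library. The part of the fibre transcripts and of the lower depth in old PBS was not tested.

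The 4 other reported classes held fewer cells. Tenocyte-like cells had 9 lower and 2 higher of 26 members with age (8.50% and 10.4% of genes) and 2 higher and 2 lower with treatment (5.22% and 8.52%), with Slc16a3 at 11.3, 5.50 and 7.38 CPM and Slc2a1 at 27.2, 17.4 and 21.6 CPM. Dendritic-like cells had 6 lower and 4 higher with age (11.0% and 9.59%) and 11 higher and 1 lower with treatment (10.9% and 6.91%) of 30 members, among them Slc16a3 at 56.7, 46.5 and 74.0 CPM (0.821 and 1.59 times). The border of this class moved with the random seed of the clustering, from 1887 cells to 1443 with another seed, which gave 8 lower and 2 higher of 29 members with age (9.65% and 7.12% of genes) and 9 higher and 2 lower with treatment (11.8% and 5.88%). T/NK-like cells had 2 lower and 1 higher with age (8.0% and 9.73%) and 4 higher and 0 lower with treatment (5.70% and 5.73%) of 22, and pericyte/smooth muscle-like cells 7 lower and 5 higher with age (15.7% and 11.9%) and 8 higher and 4 lower with treatment (8.25% and 6.52%) of 22. In these 2 classes the counts per gene were low, since they held 121 to 206 and 85 to 104 cells per library. Some members reached the minimum only with their highest library, and calls of such members in these 4 classes were those of Slc16a3 in tenocyte-like cells with age and in T/NK-like cells with treatment, of Pgam2 and Ankrd37 in dendritic-like cells, and of Slc2a1, Pfkl, Slc16a1 and Egln1 in pericyte/smooth muscle-like cells. Against young PBS, the higher and lower calls in old rMETRNL were 1 and 3 in tenocyte-like (6.30% and 7.51% of genes), 6 and 2 in dendritic-like (7.06% and 4.83%), 2 and 0 in T/NK-like (5.94% and 4.27%) and 3 and 1 in the pericyte/smooth muscle-like class (10.6% and 11.1%). Fibre genes summed to 67.2, 485 and 102 CPM in T/NK-like and to 61.6, 474 and 222 CPM in pericyte/smooth muscle-like cells. Haemoglobin genes summed to 159, 39.9 and 646 CPM in dendritic-like cells, and the part of either list was not tested. Pericyte/smooth muscle-like cells had the highest Slc2a3 of the reported classes, at 34.0, 98.4 and 54.97 CPM, 2.90 times with age (1.80 to 4.78).

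Across the 8 classes, Tpi1 was the most widely called member, lower with age in 7 and higher with treatment in 6. Pgk1 and Pgam1 were each lower with age in 6 of 8 and higher with treatment in 5. Slc16a3 had a ratio below 1 with age in 8 of 8 classes, called in 4, and above 1 with treatment in 8 of 8, called in 6. Its tenocyte-like age call and its T/NK-like treatment call reached the minimum only with its highest library and rest on that selection. Pfkl was below 1 with age in 8 of 8, called in 5, and higher with treatment in 6. The pericyte/smooth muscle-like age call of Pfkl rests on the same selection. Ankrd37 was lower with age in 4 of the 5 classes with enough UMIs and higher with treatment in 5. In dendritic-like cells, 1 of these 5 classes, it reached the minimum only with its highest library, so that treatment call rests on that selection. Hk2 was higher with age in 6 of 8. The classes come from the same 3 libraries and mouse pools and are not replicates of one another.

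Isozyme shares of UMIs differed widely between cell classes. Hexokinase UMIs in FAP-like cells were almost all Hk2 (92.8%, 94.9% and 93.8%), those in endothelial-like cells mostly Hk1 (92.2%, 85.8% and 90.7%), and macrophage/monocyte-like cells held a large share of Hk3 (41.4%, 37.6% and 45.6%). Phosphofructokinase UMIs were 88.5% to 92.9% Pfkp in dendritic-like cells and 97.9% to 100% Pfkm in mature fibre-like cells, a class below the cell minimum in young PBS. Eno3 made up 99.05% to 99.4% of enolase UMIs and Pgam2 98.8% to 99.2% of mutase UMIs in mature fibre-like cells, against 2.68% to 7.64% and 0.210% to 1.44% in FAP-like cells. MuSC/myoblast-like cells split enolase evenly, with 49.9%, 49.0% and 50.8% Eno3, and dendritic-like cells held 40.4%, 40.9% and 29.0%.

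**Figure D4:**
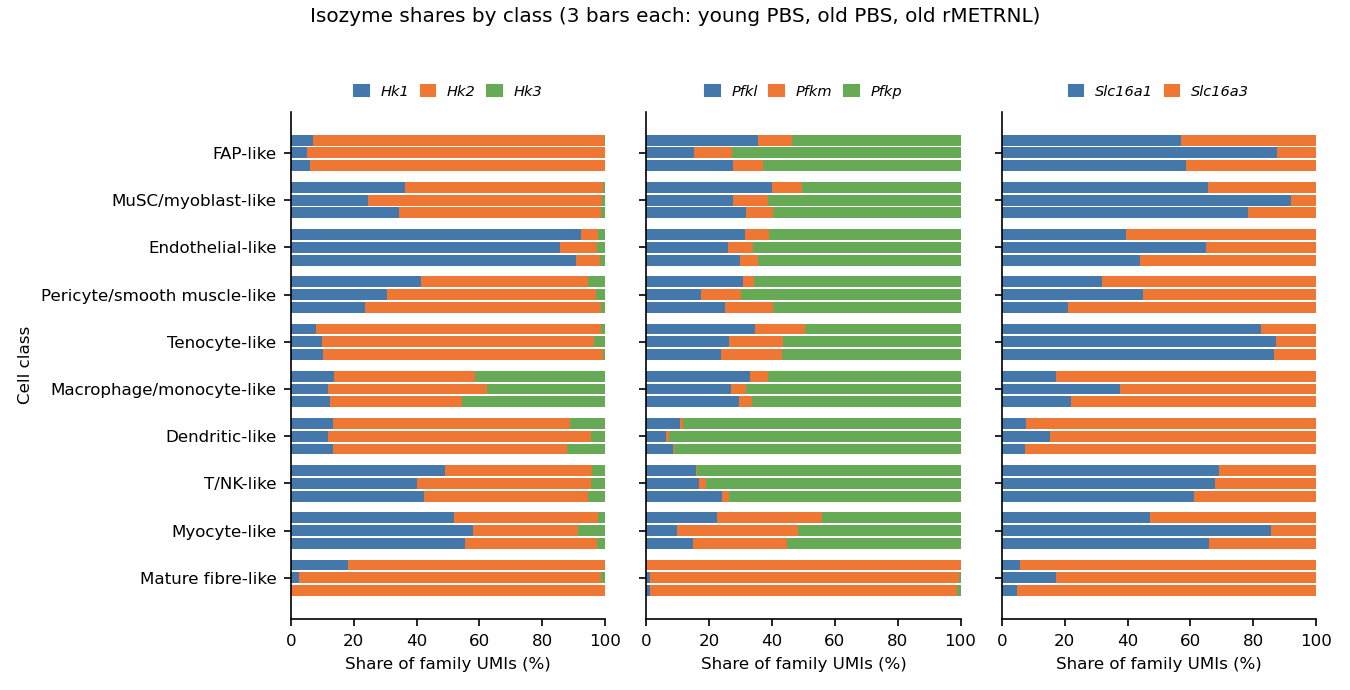
Share of UMIs (percent) of each isozyme within its family, by cell class and library (myocyte-like and mature fibre-like cells fall under 50 cells in a library). Hk2 fills 92.8% to 94.9% of hexokinase UMIs in FAP-like cells, Hk1 85.8% to 92.2% in endothelial-like cells, and in FAP-like cells the Slc16a3 share of the lactate carriers is 12.3% in old PBS against 42.9% in young PBS and 41.3% in old rMETRNL.

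Of the families compared in FAP-like cells, the pair of lactate carriers had the shares that differed most between libraries. In FAP-like cells Slc16a3 made up 42.9%, 12.3% and 41.3% of their UMIs, in MuSC/myoblast-like cells 34.5%, 7.92% and 21.8%, in macrophage/monocyte-like cells 82.7%, 62.2% and 78.0% and in endothelial-like cells 60.4%, 35.0% and 56.0%. The share was lowest in old PBS in each of these 4 classes. T/NK-like cells did not show it, with 30.9%, 32.1% and 39.0%. In endothelial-like cells Slc16a1 was called higher with age at 2.23 times, while Slc16a3 was not called at 0.788 times (0.603 to 1.02). Among phosphofructokinases in FAP-like cells, Pfkl made up 35.4%, 15.1% and 27.6%, with Pfkp at 53.7%, 72.6% and 62.9%. In macrophage/monocyte-like cells the Pfkl share was 33.1%, 26.8% and 29.4%. Aldoc reached 1.55% to 2.99% of aldolase UMIs in dendritic-like cells and 0.484% or less in macrophage/monocyte-like and FAP-like cells.

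Genes of neighbouring pathways are read against the shares of all genes called in FAP-like cells, 13.3% higher and 15.6% lower with age and 10.4% and 9.43% with treatment. Of 44 other genes of sugar, glycogen and pyruvate metabolism, 32 were tested in FAP-like cells, where 2 were higher and 4 lower with age and 2 higher and 2 lower with treatment. The largest were Gys1, the glycogen synthase of most tissues, at 9.52, 4.97 and 8.87 CPM (0.522 and 1.78 times), and Pygm, the muscle glycogen phosphorylase, at 4.04, 5.51 and 3.06 CPM. Of 8 pentose phosphate genes, none was called with age and 2 were higher with treatment, Pgd at 41.0, 38.9 and 52.5 CPM and Tkt at 73.6, 67.2 and 86.0 CPM. Of 34 other hypoxia genes, 32 were tested, with 10 lower and 4 higher with age and 9 higher and 2 lower with treatment. The median log2 ratio of that list was -0.066 with age, against -0.041 over all genes, and 0.023 with treatment, against 0.016, so the middle of the list lay near that of all genes. The 3 genes described next were the called ones furthest from 1 among those with at least 200 UMIs. The cytokine Mif was at 474, 251 and 456 CPM and the mitochondrial proteins Fam162a and Higd1a at 127, 66.9 and 122 and at 151, 80.1 and 154 CPM, 0.528 to 0.530 times with age and 1.81 to 1.92 times with treatment. All 3 were lowest in old PBS, as were Pgk1 and Bnip3.

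In macrophage/monocyte-like cells, 34 of the other sugar genes were tested, with 5 higher and 1 lower with age and 3 higher and 4 lower with treatment, and none of the 8 pentose phosphate genes was called in either, where 12.5% of all genes were called in each direction with age and 12.5% higher and 7.78% lower with treatment. Bpgm, whose product makes bisphosphoglycerate, was at 5.58, 3.85 and 4.59 CPM (0.691 times with age), and Got1, an aspartate aminotransferase, at 132, 156 and 113 CPM (0.722 times with treatment). Of the other hypoxia genes, 29 were tested, with 9 lower and 5 higher with age and 7 higher and 5 lower with treatment, and median log2 ratios of -0.092 and 0.14. P4ha2, a collagen prolyl hydroxylase, was at 1.84, 1.07 and 2.48 CPM (0.579 and 2.32 times), and Ndrg1 at 104, 142 and 101 CPM (0.714 times with treatment), so hypoxia-linked genes went both ways in this class. Epas1, which encodes Hif2a, was at 3.57, 7.36 and 5.80 CPM, 2.06 times with age (1.81 to 2.35).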

How the data were processed

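The deposited counts were raw UMIs per gene and barcode, which the authors made with Cell Ranger (the submitters' processing notes name versions 5.0.0 and 3.1.0 and build mm10, and the annotation release was not given in the sources used here). No replicate libraries existed. The members and gene lists were chosen with earlier results of these data known. Barcodes below 500 genes, or with 10% or more of UMIs from mitochondrial genes, were dropped. The automatic doublet threshold called 1, 1 and 2 cells and so did not work, and the highest scores were removed at 0.8% per 1000 barcodes (1179, 1261 and 1559 cells). Clustering (scanpy 1.11.5, 2000 variable genes without the members and other pathway genes, 30 components, 20 neighbours, Leiden resolution 0.8) gave 27 clusters, named from 15 marker lists when at least 3 markers were detected. These naming rules were revised after cluster tables had been seen. Sub-clusters were removed for more leading markers or raised markers of another class, or for low UMI counts without own leading markers. Together these rules took 5.30%, 7.39% and 9.02% of FAP-like and 1.17%, 0.378% and 0.621% of macrophage/monocyte-like cells. Of the sub-clusters, 8 of 11 and 11 of 12 remained. UMIs were summed by symbol (Aldoa has 2 feature IDs). Levels carry exact 95% Poisson intervals, ratios the exact interval conditional on the sum of both counts, and shares exact binomial intervals. Log2 ratios were formed with 0.5 counts added. Calls needed 50 UMIs over the 3 libraries. The call rule was tried on simulated Poisson counts, the kind the intervals assume, which say nothing of variation between mice or libraries. All 33 members were named, and up to 3 genes of each other list by size of ratio. Alternatives changed doublet removal, cell filters, scaling, clustering and its seed, gating by markers, cycling cells, fibre subtraction, minimum and fold. Promoters and the GRCm38.p6 coordinates are from RefSeq. The tools were Python 3.11.15, numpy 2.4.6, pandas 2.3.3, scipy 1.17.1 and matplotlib 3.10.9.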

Additional observations from a re-analysis of the deposited data

Results flagged for a closer look

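The glucose carrier Slc2a3 had treatment ratios on opposite sides of 1 in the sums of the 2 largest classes. Old rMETRNL stood at 0.7 times old PBS in FAP-like cells and at 1.75 times in macrophage/monocyte-like cells. Within FAP-like cells the fall was not called in any of the 5 tested sub-clusters, where the ratio was below 1 in 3 and above 1 in 2. With the sub-cluster mix of young PBS held, the log2 ratio in FAP-like cells went from -0.51 to -0.27, under the fold. In macrophage/monocyte-like cells it was above 1 in 5 of 6 sub-clusters, called higher in 4 and lower in 1, and with that mix held the log2 ratio went from 0.80 to 0.47, still called. The difference between the classes was not tested, since each group had 1 library.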

How the results depend on the processing

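No paired analysis was possible because each group had 1 library, and for the same reason no library could be left out. Of the summary values, 204 kept within the limits set for them under the alternatives and 12 did not. Of the values of single members, 1936 stayed within their counting interval or the spread over libraries, 368 moved beyond it and 6 called values changed sign. At a fold of 1.5, members in FAP-like cells numbered 10 (lower, age), 9 (higher, treatment) and 1 (lower, treatment), and in macrophage/monocyte-like cells 2 higher and 4 lower with age and 4 higher with treatment. With the fibre ratio subtracted, 1 member was higher with age in FAP-like cells and 3 in macrophage/monocyte-like cells. In the latter, gating by marker UMIs gave 3 higher with age. Leaving out cells by cell cycle counts gave 7 lower with age and 7 higher with treatment there. The young PBS mix of sub-clusters gave 6 higher with treatment. That setting and another clustering seed, which gave FAP-like counts of 18 lower and 3 higher with age (15.7% and 13.1% of genes) and 17 higher and 2 lower with treatment (10.5% and 9.24%), were added after the data were seen. Shares of all genes for the fold of 1.5, for cells left out by cell cycle counts and for the young PBS mix are given above. The gated count stands without such a share and is not read against all genes, and fibre subtraction changed the members alone. The log2 ratio of Eno3 with age reversed in FAP-like cells to -0.32 (gated), -0.21 (doublet calls kept) and -0.16 (fibre ratio subtracted). In macrophage/monocyte-like cells the age ratio of Pgam2 reversed to -0.032 with the fibre ratio subtracted, and that of Eno3 to -0.14 when gated. Hk2 in the Crabp1/Il11/Inhba sub-cluster over other FAP-like cells (log2, mean of the 3 libraries) went from 0.40 to -0.36 at sub-clustering resolution 1.2. The causes were not tested. The FAP-like calls of Slc16a3, Pfkl, Pgk1, Bnip3, Tpi1, Eno1, Pgam1 and Gapdh held in 15 of 15 alternatives in both comparisons (fold and minimum left as they were), while the treatment calls of Ankrd37, Pfkfb3 and Pgam2 held in 7, 10 and 9, and the age calls of Pfkfb3, Eno3, Gpi1, Aldoa and Pkm in 9, 12, 12, 12 and 13. Of the FAP-like calls, 9 of 21 with age and 5 of 20 with treatment were lost in at least 1 alternative, as were 9 of 17 and 7 of 14 in macrophage/monocyte-like cells.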
